A study of Mus musculus with 3 samples.

Results

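TRBV29, called Vβ7 in the older mouse nomenclature, is 1 of the variable gene segments that can form the β chain of a T cell receptor. It was followed here across 3 libraries in which scTCR-Seq had read the receptor transcripts of single immune cells from inflamed nerve. Its cells were those with a productive TRB contig (an assembled β chain transcript that can be translated) whose V gene was TRBV29. There were 185 such cells among 6256 cells with a TRB, and 6634 cells in all. The gene was chosen by a readout of these same libraries: it carries the sole paired clonotype with 2 or more cells in each of 2 libraries. The sizes of that clonotype are therefore given as a description with no test, and they support nothing by themselves.

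All libraries came from CD45+ cells of the sciatic nerve of neuropathic NOD.AireGW/+ mice, which carry 1 mutant copy of Aire on the NOD background and develop an autoimmune neuropathy. Aire is the regulator that lets thymic epithelial cells display tissue antigens, and its loss lets self-reactive T cells escape. Replicates 1 and 2 held 1 mouse each and replicate 3 pooled 2 mice, whose cells the files do not tell apart. They share 1 condition, and there is no control group to set them against. Age and sex were not in the labels, and no gene expression was joined to the barcodes, so CD4+ and CD8+ cells were not separated.

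Each β chain is assembled in the thymus by joining 1 V, 1 D and 1 J segment, and each α chain by joining 1 V and 1 J segment. Bases are trimmed from the segment ends and others added without a template, so the junction, which encodes the CDR3 loop, differs between most T cells. CDR1 and CDR2 are fixed by the V segment and mainly touch the MHC molecule, whereas the CDR3 lies over the presented peptide. A T cell that divides passes its junctions on unchanged. Clone sizes were counted here by the β chain alone, as the cells of a library with the same TRB rearrangement, whatever their α chain. Rearrangements were counted as distinct when they differed in V gene, in J gene or in any base of the CDR3, and were counted within a library.

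TRBV29 is encoded on the forward strand at chr6:41271394-41271881 of GRCm38 (the build also named mm10), between TRBV28 and TRBV30, and ends 261.3 kb before TRBD1. GENCODE annotates it as a V gene of 2 exons and RefSeq as a V segment pseudogene. The 344 coding bases of the GENCODE model held 0 stop codons. In replicates 2 and 3 the files give the V region before the CDR3, and all 106 and 19 productive TRBV29 contigs matched the reference over its 270 bases with 0 differences. The V end, shown because it is the part of TRBV29 that enters the junction, lies at chr6:41271865-41271881, and TRBD1 and the J segment of the clonotype that chose the gene lie downstream. The 2 fixed loops of TRBV29 are shown because every member carries them, and they encode the residues MSHET and SYDVDS.
TRBV29 CDR1, chr6:41271673-41271687: atgagccatgaaaca
TRBV29 CDR2, chr6:41271739-41271756: tcatacgatgttgatagt
TRBV29 end from the conserved cysteine codon, chr6:41271865-41271881: tgtgctagcagtttatc
TRBD1, chr6:41533201-41533212: gggacagggggc
TRBJ1-3 to the conserved phenylalanine codon, chr6:41534323-41534344: ttctggaaatacgctctatttt

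The clonotype found in both single-mouse libraries paired a TRBV29-TRBJ1-3 β chain with the CDR3 loop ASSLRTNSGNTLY to a TRAV7-3-TRAJ32 α chain with the loop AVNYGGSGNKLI (the conserved residues at either end are left out of both). The amino acid loops were identical in the 2 libraries, and each nucleotide CDR3 differed at 1 base. The sequences are shown 5′ to 3′ from the conserved cysteine codon, with the base that differed between the libraries in capitals.
TRB, replicate 1: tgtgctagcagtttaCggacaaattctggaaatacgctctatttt
TRB, replicate 2: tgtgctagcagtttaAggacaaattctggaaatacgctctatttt
TRA, replicate 1: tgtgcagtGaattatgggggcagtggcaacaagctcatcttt
TRA, replicate 2: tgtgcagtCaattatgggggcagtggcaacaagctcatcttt
Counted from 1 at the first base of the CDR3, with the base of replicate 1 first, the substitutions were C16A in the β chain and G9C in the α chain. C16A falls in the first base of codon 6 and leaves its arginine, and G9C falls in the third base of codon 3 and leaves its valine.

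The TRB junctions of both libraries kept 15 of the 17 germline bases of TRBV29 and all 22 of TRBJ1-3. Between them lay 8 bases, of which 5 (ggaca), starting at position 17 of the CDR3, matched TRBD1 and 3 matched no segment. The substitution C16A was 1 of those 3 bases, so the libraries shared their V, D and J bases and differed within the bases that matched no segment. For the α chain, TRAV7-3 (chr14:53443249-53443839) and TRAJ32 (chr14:54186101-54186166) supply the segments below, the TRAJ32 of these libraries being shown beside that of GRCm38 because all 114 TRAJ32 α chains in the 3 libraries carried the substitution A12G over the last 26 bases compared (reference base first, counted from the first base of the segment).
TRAV7-3 end, chr14:53443827-53443839: tgtgcagtgagca
TRAJ32 of GRCm38, chr14:54186101-54186135: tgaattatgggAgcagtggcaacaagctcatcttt
TRAJ32 as carried: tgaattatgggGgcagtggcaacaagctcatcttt
Against the carried TRAJ32, the α junction of replicate 1 was germline throughout, with 10 bases from TRAV7-3, 35 from TRAJ32 and 3 that matched both. That of replicate 2 kept 8 bases of TRAV7-3 and 33 of TRAJ32 and had 1 base that matched neither, which was the base of G9C.

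In replicate 1 the shared TRB was found in 7 cells, all of which also held the shared TRA. In replicate 2 it was found in 11 cells, of which 10 held the shared TRA and 1 had no TRA. Replicate 3 had 0 such cells among 642 cells with a TRB, which allows a share of up to 0.467% when a count of 0 is taken to allow 3 counts. The 7 cells were 0.311% of the 2253 cells with a TRB in replicate 1 (exact Clopper-Pearson 95% interval 0.125% to 0.639%), and the 11 cells were 0.327% of 3361 in replicate 2 (0.164% to 0.585%). The 2 shares lay within each other's intervals, and both were below the share that replicate 3 could have missed, so the absence from the pooled library was not detectable as a difference at this depth. These intervals cover counting error only.

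None of the 18 cells with the shared TRB had a second TRA or a second TRB. In replicate 1 their TRB contigs had 4 to 13 UMIs (unique molecular identifiers, 1 per captured transcript), with a median of 7, equal to the median of 7 over all TRBV29 contigs of that library. In replicate 2 they had 5 to 40 UMIs, with a median of 24 against 6 over all TRBV29 contigs, while their TRA contigs had a median of 5.5. The clonotype held 54 of the 451 TRBV29 UMIs of replicate 1 and 215 of the 831 of replicate 2. Between the 2 libraries, the TRB median of these cells was higher in replicate 2 (24 against 7) and the TRA median was not (5.5 against 7). No median over other TRA contigs was taken, so whether these TRA numbers were usual for their library was not tested. In both libraries 24 rearrangements of any V gene had more cells than this TRB, which made it the 25th largest of 266 rearrangements with 2 or more cells in replicate 1 and of 450 in replicate 2.

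Cell barcodes and contigs shared by the libraries were counted, since the clonotype lies in 2 of them. Replicates 1 and 2 had 7 cell barcodes in common, replicates 2 and 3 had 3 and replicates 1 and 3 had 0; 0 of these were TRBV29 barcodes in both libraries, and 0 barcodes of the shared clonotype were cell barcodes in the other library. Over every assembled contig, cell or not, the TRB version of replicate 1 was found 24 times in replicate 1 and 0 times in replicates 2 and 3. The version of replicate 2 was found 16 times in replicate 2 and 0 times in the others. For the TRA the versions were found 24 and 13 times, again each in its own library.

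No other TRBV29 rearrangement lay within 1 amino acid of the shared TRB in any library, among 37, 62 and 13 others. The nearest was in replicate 2, a TRBV29-TRBJ1-3 chain with the loop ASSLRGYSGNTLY, 2 residues away. It was found in 2 cells with 20 UMIs, paired in both with a TRAV4-3-TRAJ50 α chain of the loop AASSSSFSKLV, a V and a J segment other than those of the shared TRA. In replicates 1 and 3 the closest TRBV29 chain of equal length was 5 and 6 residues away. With other V genes, 1 chain lay 1 residue away, a TRBV14-TRBJ1-3 chain with the loop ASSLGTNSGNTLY in 1 cell of replicate 1, and 1 lay 2 residues away, a TRBV13-1-TRBJ1-3 chain with the loop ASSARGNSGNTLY in 4 cells of replicate 2. Their junctions are shown with the bases that differ from the shared TRB of replicate 1 in capitals. All 3 used TRBJ1-3, and none had the shared TRA.
TRBV29, replicate 2: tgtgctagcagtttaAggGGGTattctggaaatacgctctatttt
TRBV14, replicate 1: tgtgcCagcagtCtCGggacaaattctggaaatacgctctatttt
TRBV13-1, replicate 2: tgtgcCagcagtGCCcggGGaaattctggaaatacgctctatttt

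The shared α loop was also found without the shared TRB in 2 cells of replicate 1. In 1 cell the α chain was TRAV7-3 and no TRB was read. In the other the identical nucleotide CDR3 was assigned to TRAV7-1 and sat beside a different TRB. The α chains that differed from it by 1 residue had several V genes: TRAV12D-2 and TRAV3-3 chains in 1 cell each of replicate 1, a TRAV14-1 chain in 1 cell of replicate 2 and a TRAV7-3 chain with the loop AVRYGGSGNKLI in 1 cell of replicate 3, all with TRAJ32.

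The shared TRB was the only TRBV29 amino acid TRB found in more than 1 library, 1 of 113 (0.885%). As it is what chose the gene, that count is no independent result. Over all TRBV genes 51 of 3797 (1.34%) were found in more than 1 library and 0 in all 3. The V gene TRBV13-2 was named TRBV12-2+TRBV13-2 for part of the contigs, and with the 2 names counted as 1 gene the numbers were 50 of 3733 and 1 in all 3, the loop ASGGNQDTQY. At the nucleotide level 0 of 114 TRBV29 rearrangements were shared, against 12 of 3860 over all TRBV genes. Of 11 paired amino acid clonotypes found in more than 1 library, 1 was TRBV29. The other 10 had at most 2 cells in any library, whereas the TRBV29 clonotype had 7 and 10 cells with exactly 1 TRA and 1 TRB; the latter sizes are what chose the gene.

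In all, TRBV29 was found in 38 rearrangements and 60 cells of replicate 1, 63 rearrangements and 106 cells of replicate 2, and 13 rearrangements and 19 cells of replicate 3. Its share of the 1302 TRB rearrangements of replicate 1 was 2.92% (95% interval 2.07% to 3.98%). In replicate 2 it was 3.10% (2.39% to 3.95%) of 2033, and in replicate 3 2.42% (1.30% to 4.10%) of 537, which gave 2.81% ± 0.351 (SD, n = 3). Counted as cells, the share was 2.66%, 3.15% and 2.96%, or 2.93% ± 0.247. Each library's share lay within the intervals of the others.

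**Figure D1:**
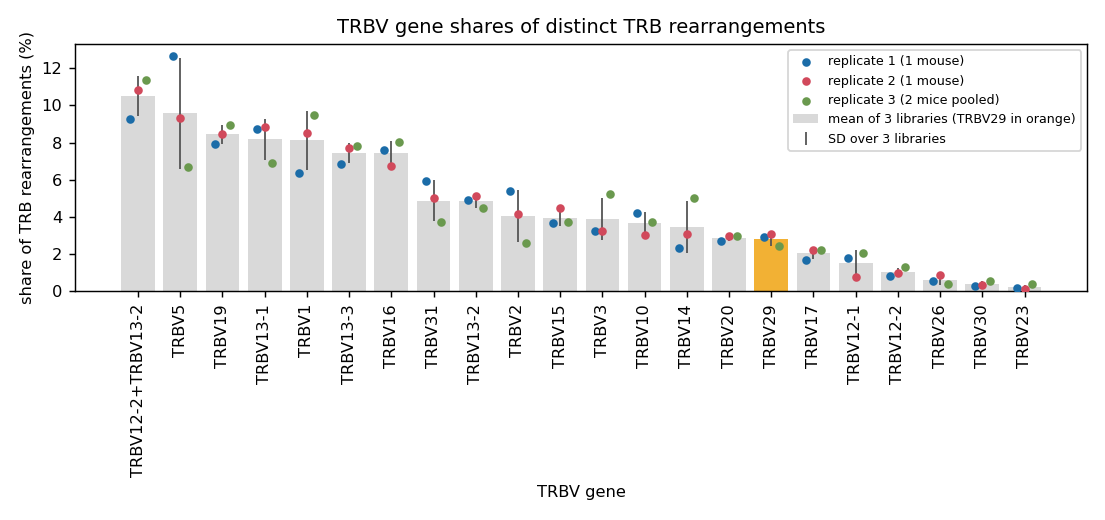
Share of distinct TRB rearrangements (%) taken by each TRBV gene, with the mean of the 3 libraries as bars, the SD as lines and each library as a point. TRBV29, in orange at 2.81%, stands 16th of 22, with its 3 points close together.

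By mean share TRBV29 ranked 16th of 22 TRBV genes, and 14th, 13th and 16th in the libraries taken 1 by 1. The genes next above it were TRBV20 with 2.87% ± 0.161 and TRBV14 with 3.48% ± 1.40, and those next below were TRBV17 with 2.05% ± 0.309 and TRBV12-1 with 1.53% ± 0.662 (SD, n = 3 for each). TRBV14 and TRBV20 overlapped TRBV29 in their library values. TRBV17 did not, since its highest library (2.24%) was below the lowest of TRBV29 (2.42%), and this difference was not tested. The TRBV genes whose J use was most like that of TRBV29, by total variation distance over the mean J shares of 3 libraries, were TRBV16 (0.232), TRBV31 (0.239) and TRBV13-3 (0.245), where 0 is identical and 1 has no J gene in common.

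TRBV29 was joined to 12 TRBJ genes, 44 of the 114 rearrangements to the TRBJ1 cluster and 70 to the TRBJ2 cluster. TRBJ2-5 was used most, in 21 rearrangements. It took 15.8% of the 38 rearrangements of replicate 1, 15.9% of the 63 of replicate 2 and 38.5% of the 13 of replicate 3, where 13.1%, 12.3% and 12.4% of the rearrangements of other TRBV genes used it. TRBV29 was above the other genes in all 3 libraries, with 1.45 times the expected number, but did not pass the test (adjusted p = 0.472, exact test stratified by library with Benjamini-Hochberg adjustment over all V-J pairs). TRBJ2-7, the most used J gene of the other TRBV genes, followed with 15 rearrangements, of which 2 were in replicate 1, 13 in replicate 2 and 0 in replicate 3. That was 5.26%, 20.6% and 0% of TRBV29 rearrangements (the last with an upper 95% limit of 24.7%) against 21.4%, 19.9% and 18.7% of the others, so replicate 2 alone was at the level of the other genes. The count was 0.657 of its expected number and did not pass the test either (adjusted p = 0.46, same exact test). The ratio depended on single libraries: it was 0.194 without replicate 2 (adjusted p = 0.163) and 0.873 without replicate 1 (adjusted p = 0.992), by the same exact test. TRBJ1-4, the third most used, was found in 4, 5 and 2 rearrangements, above expectation in each library, with 10.5%, 7.94% and 15.4% against 9.81%, 7.61% and 7.06% of the others (1.16 times the expected number over the libraries, adjusted p = 0.987, same exact test).

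**Figure D2:**
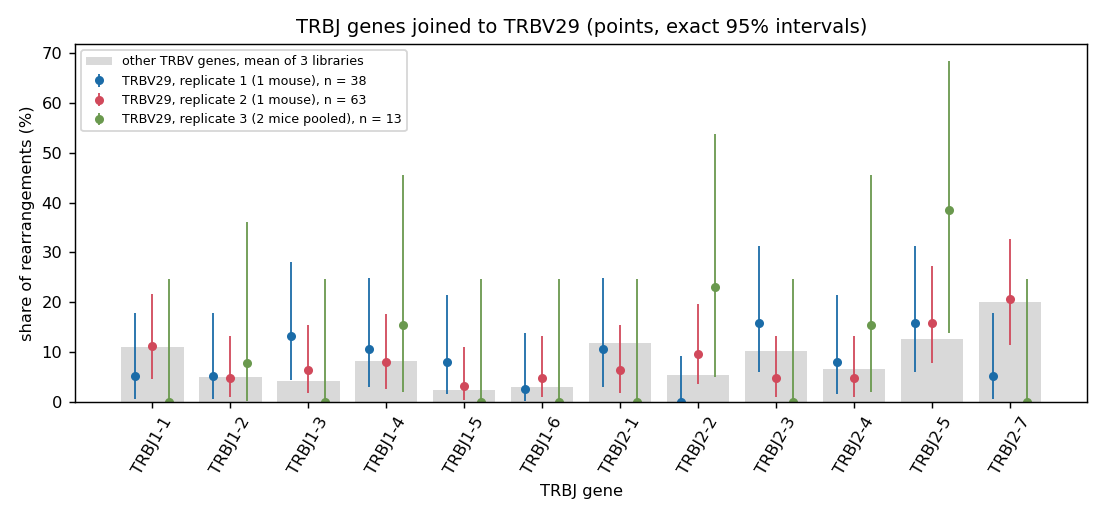
Share of rearrangements (%) that used each TRBJ gene, for TRBV29 by library (points, with exact 95% intervals) and for the other TRBV genes as the mean of 3 libraries (bars). TRBJ2-5 lies above the bar in each library and TRBJ2-7 well below it in replicates 1 and 3, with intervals that are widest in replicate 3 (n = 13).

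Over all V-J pairs with an expected number of at least 5, 3 of 193 passed the adjusted threshold of 0.05 (1.55%). For TRBV29, 0 of 10 pairs tested passed, 0 had an unadjusted p under the same threshold, and observed over expected numbers ranged from 0.609 to 1.77. TRBJ1-3, the J gene of the shared clonotype, had the highest of these ratios, 9 rearrangements where 5.10 were expected (adjusted p = 0.501, exact stratified test), with 5, 4 and 0 in the libraries. As 2 of those 9 are the shared TRB itself, the count is not independent of what chose the gene. The tests compare rearrangements within these libraries and not mice.

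The CDR3 of TRBV29 was 12 to 17 amino acids long, conserved ends included, most often 14 (40 of 114 rearrangements). The mean length was 14 ± 1.29 (SD over 38 rearrangements) in replicate 1, 14.2 ± 1.10 (63) in replicate 2 and 14.2 ± 1.17 (13) in replicate 3. Against other TRBV genes it differed by -0.00237, 0.253 and 0.238 residues, a mean of 0.163 ± 0.144 (SD, n = 3 libraries), which is about the size of the spread between libraries. With 3 libraries an exact sign-flip test cannot go below p = 0.25.

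The germline V end of TRBV29 encodes a leucine at the fifth codon. Of the 114 junctions, 43 kept the 15 V bases up to and including that codon and 10 kept all 17, and 105 began with the residues CASS. Leucine stood at the fifth position in 22 of 38, 26 of 63 and 6 of 13 rearrangements, 54 in all, of which 11 had a trimmed V end and so a leucine codon completed from other bases. The shared TRB was among the 43.

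Between the V and J matches, TRBV29 junctions held on average 3.32 bases outside V, D and J matches in replicate 1, 4.19 in replicate 2 and 2.85 in replicate 3. Junctions of other TRBV genes held 4.20, 4.36 and 4.97 such bases. TRBV29 was lower in each library, with differences of -0.881, -0.167 and -2.12 bases, a mean of -1.06 ± 0.988 (SD, n = 3), so the libraries spread about as widely as the mean difference itself. Its V match was longer than that of other genes, 13.7 ± 0.259 against 12.8 ± 0.352 bases. These are bases from the cysteine codon and were not set against the length of the germline V end of each gene. TRBV29 matched the reference in every contig that could be compared, and whether the V segments of the other genes do so in NOD mice was not tested. With 3 unmatched bases, the shared TRB was below the mean of TRBV29 in both of its libraries, and 6 TRBV29 junctions had 0.

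**Figure D3:**
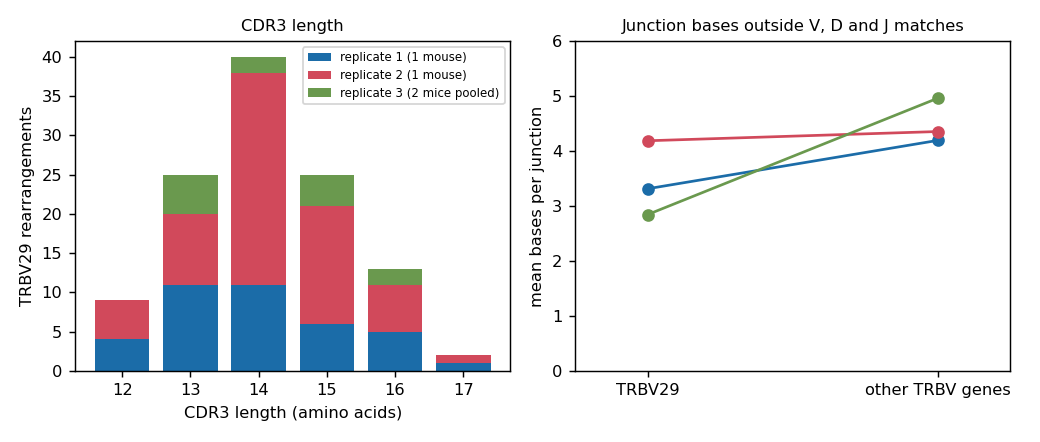
Left, number of TRBV29 rearrangements at each CDR3 length (amino acids), stacked by library, with most at 14. Right, mean number of junction bases outside V, D and J matches for TRBV29 and for other TRBV genes, 1 line per library; TRBV29 is lower in each, with the steepest line in replicate 3 (2.85 against 4.97).

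Most TRBV29 rearrangements were found in 1 cell: 27 of 38, 47 of 63 and 10 of 13. Those of 2 or more cells numbered 11, 16 and 3, which was 28.95%, 25.4% and 23.08% of its rearrangements. Among other TRBV genes 20.17%, 22.03% and 12.21% of rearrangements had 2 or more cells, lower in each library. This difference was not tested, and the shared clonotype counts in replicates 1 and 2. The TRBV29 rearrangements of 2 or more cells held 55.7% (95% interval 42.5% to 68.5%) of the TRBV29 chains of replicate 1 and 55.7% (45.7% to 65.3%) of replicate 2. In replicate 3 they held 47.4% (24.5% to 71.1%), for a mean of 52.9% ± 4.81 (SD, n = 3). The same share over other TRBV genes was 56.2%, 55.8% and 27.3%, but the TRBV29 shares of replicates 1 and 2 include the clonotype whose size chose the gene. Without it they were 50% (27 of 54, interval 36.1% to 63.9%) and 50.5% (48 of 95, 40.1% to 61.0%). In replicate 3, which lacks it, the share rested on 9 of 19 cells in 3 rearrangements, with 27.3% inside its interval. The intervals of this paragraph treat cells as independent draws. The cells of 1 rearrangement are counted in or out together, so these intervals are too narrow. In rearrangements of more than 5 cells TRBV29 had 21.3%, 21.7% and 0% of its chains (the last with an upper 95% limit of 17.7%), against 32.7%, 28.5% and 3.32% for the others. Of these chains 7 and 11 were those of the shared clonotype, without which the shares of replicates 1 and 2 were 11.1% (6 of 54) and 12.6% (12 of 95). The largest TRBV29 rearrangement had 7, 11 and 5 cells, and the largest of the other genes had 365, 96 and 14. The latter are maxima over many more rearrangements, so these sizes do not compare the genes. Counted by rearrangement, 5.26%, 4.76% and 0% of TRBV29 had more than 5 cells, against 3.24%, 3.86% and 0.382% of others. The first 2 of these TRBV29 shares again include the shared clonotype.

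**Figure D4:**
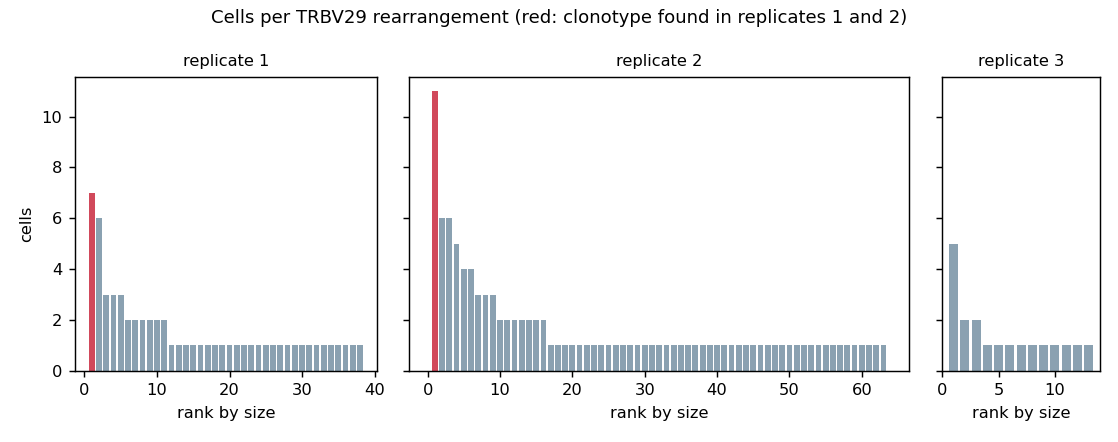
Cells per TRBV29 rearrangement in each library, ranked by size. The clonotype found in replicates 1 and 2, in red, is the largest in both with 7 and 11 cells, and most other rearrangements have 1 cell.

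The largest rearrangements differed in how uniform their α partners were. In replicate 1 the second had the loop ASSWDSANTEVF with TRBJ1-1 and 6 cells, of which 2 had no TRA and the rest held 3 different α chains. The most frequent, a TRAV3-1-TRAJ32 chain with the loop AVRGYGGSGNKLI, was in 3 cells, and a TRAV7-4-TRAJ32 and a TRAV8D-2-TRAJ40 chain were in 1 cell each, 1 of the cells holding 2 α chains. Among cells with 1 TRB, TRAV7-4 was in 0 TRBV29 combinations of replicate 1, so the cell with that chain also held another TRB. The Cell Ranger clonotype most frequent among the cells of this rearrangement had 2 cells. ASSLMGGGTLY, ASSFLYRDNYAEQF and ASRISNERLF followed with 3 cells each. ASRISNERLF paired with a TRAV13-1-TRAJ30 chain in all of its cells, and 1 of them also held a TRAV5-4-TRAJ40 chain.

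In replicate 2 the next largest were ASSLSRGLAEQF with TRBJ2-1 and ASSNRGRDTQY with TRBJ2-5, of 6 cells each. All 6 cells of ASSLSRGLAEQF held a TRAV6N-7-TRAJ34 chain with the loop ALSDRPNTDKVV, and 3 of them held a second α chain, TRAV3-3-TRAJ30. In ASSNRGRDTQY 4 of 6 cells held a TRAV8N-2-TRAJ15 chain and 2 had no TRA, and 1 of the 4 also held a TRAV13-1-TRAJ31 chain. Replicate 3 had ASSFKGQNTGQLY with TRBJ2-2 in 5 cells, all of them with a TRAV4-3-TRAJ21 chain of the loop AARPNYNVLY, followed by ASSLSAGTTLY and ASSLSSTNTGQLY with 2 cells each. Both cells of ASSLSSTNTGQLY lacked a TRA. The shared clonotype was thus 1 of several TRBV29 clones in which every cell with a TRA held the same one.

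Pairs of TRBV29 chains that differed by 1 residue within a library were seen in replicate 2 only, where 7 of 63 amino acid TRBs had such a neighbour (11.1%, against 8.65% of other TRBs within their V gene). The figures for replicates 1 and 3 were 0 of 38 (5.72% of others) and 0 of 13 (2.87% of others). Of the 4 pairs in replicate 2, the chains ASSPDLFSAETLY (3 cells) and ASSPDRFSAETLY (1 cell), which differed at 4 bases, both had a cell with the same TRAV8D-2-TRAJ52 α loop. The cells of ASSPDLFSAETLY were not uniform, however. A TRAV1-TRAJ32 and a TRAV7-4-TRAJ15 chain were also in 1 cell each, and 1 cell had no TRA. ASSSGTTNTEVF formed a pair with each of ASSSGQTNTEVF and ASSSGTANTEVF. The α chains of these 3 all came from the TRAV7 subfamily but had different J segments and loops: TRAV7N-4-TRAJ45, TRAV7-3-TRAJ26 and TRAV7-4-TRAJ16. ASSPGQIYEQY, with a TRAV5-4-TRAJ33 chain, and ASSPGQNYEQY, with a TRAV7D-3-TRAJ40 chain, shared neither α segment. No TRBV29 amino acid TRB had more than 1 nucleotide version within a library.

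In cells with 1 TRB and at least 1 TRA, TRBV29 formed 92 distinct combinations with α rearrangements, 35, 47 and 10 in the libraries. They used 38 of the 68 TRAV genes found with any TRBV, and 36 TRAJ genes. TRAV5-4 was found most, in 9 combinations (4, 4 and 1), followed by TRAV9-1 in 8 (3, 5 and 0) and TRAV13-1 in 7 (5, 1 and 1). TRAV5-4 took 9.78% of TRBV29 combinations and 5.48% of others, above expectation in each library with 1.74 times the expected number, but did not pass the test (adjusted p = 0.499, exact stratified test adjusted over all TRBV-TRAV pairs). Of all 154 TRBV-TRAV pairs with an expected number of at least 5, 0 passed (0%), and of the 2 TRBV29 pairs tested, TRAV5-4 and TRAV6N-7, 0 passed and 0 had an unadjusted p under the threshold. All other TRAV genes, TRAV7-3 among them, had too few expected combinations with TRBV29 to be tested.

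**Figure D5:**
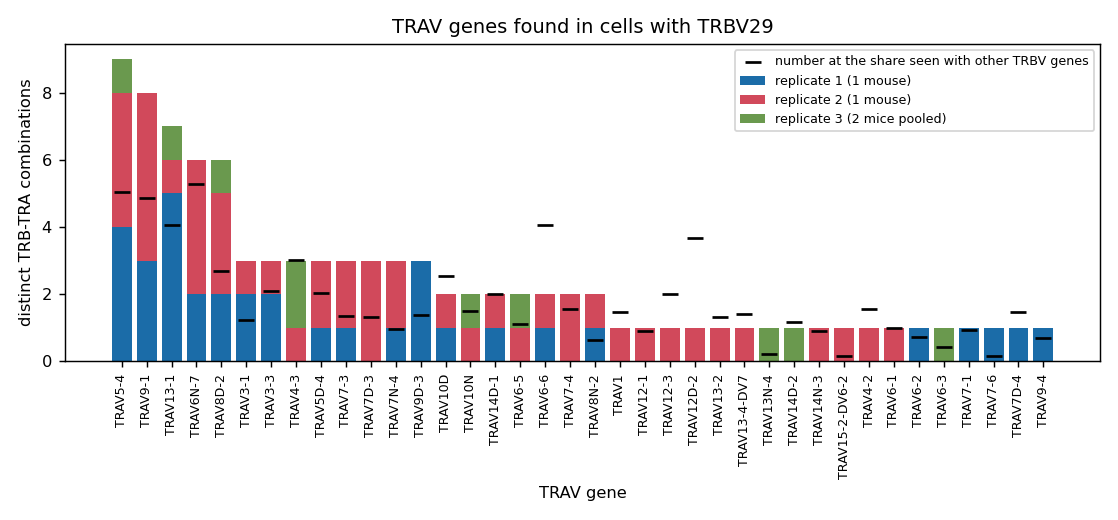
Number of distinct combinations of a TRBV29 rearrangement with an α rearrangement, by TRAV gene and library (stacked bars), with a black mark at the number expected from the TRAV share seen with other TRBV genes. TRAV5-4 leads with 9, and 2 of the 3 combinations of TRAV7-3 are the shared clonotype that chose the gene.

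TRAV7-3, the α V gene of the shared clonotype, was found in 3 combinations but 19 cells, the highest cell number of any TRAV gene with TRBV29. The shared clonotype made up 2 of those combinations and 17 of those cells. The third was in 2 cells of replicate 2, a TRAV7-3-TRAJ26 chain with the loop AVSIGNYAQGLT beside the TRB loop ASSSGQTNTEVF. TRAV7-3 took 3.26% of TRBV29 combinations and 1.47% of the others, but without the clonotype that chose the gene 1 of 90 combinations (1.11%) remained. Its near copy TRAV7D-3 (chr14:52744249-52744840) was also found in 3 combinations, all in replicate 2 and in 7 cells, and reads of the 2 copies can be exchanged where their sequences are alike. The TRAV7 subfamily as a whole held 14 combinations over 7 of its genes (5, 9 and 0 in the libraries), which was 15.2% against 11.4% of the combinations of other TRBV genes. Without the shared clonotype the subfamily held 12 of 90 (13.3%). These 12 α chains had 12 different loops and 11 TRAJ segments, TRAJ31 being used by 2 of them.

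Among α J segments TRAJ32 and TRAJ33 were used most, in 7 combinations each (7.61%, against 3.28% and 2.21% of the combinations of other TRBV genes), followed by TRAJ30 in 6 (6.52% against 2.61%). TRAJ32 was in 4 combinations of replicate 1, 3 of replicate 2 and 0 of replicate 3, in 24 cells. Besides the shared clonotype these were with the TRB loops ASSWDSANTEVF, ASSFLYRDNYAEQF and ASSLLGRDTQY in replicate 1, and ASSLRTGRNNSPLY and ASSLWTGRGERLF in replicate 2. Without the shared clonotype TRAJ32 was in 5 of 90 combinations (5.56%), fewer than TRAJ33 with 7 and TRAJ30 with 6, so its place among the most used rests on the values that chose the gene. The J segments of the α chain were looked at after their values were seen and were not tested.

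Unconventional T cells in mice are marked by invariant α chains: TRAV11-TRAJ18, the chain of invariant natural killer T cells, which pairs with few β V genes including Vβ7, and TRAV1-TRAJ33, the chain of mucosal-associated invariant T cells. TRAV11 or TRAV11D with TRAJ18 was found in 0 combinations with TRBV29, of 7 in all, which were all beside TRBV12-2+TRBV13-2. As TRBV29 had 92 combinations and other TRBV genes had 2991, a count of 0 among 7 cannot show an absence. TRAV1 with TRAJ33 was found in 1 TRBV29 combination of 15 in all, in 2 cells of replicate 2, with the α loop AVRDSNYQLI and the TRB loop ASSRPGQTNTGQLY.

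A TRA was missing in 9 of 60 TRBV29 cells of replicate 1 (15%, 95% interval 7.10% to 26.6%), 23 of 106 of replicate 2 (21.7%, 14.3% to 30.8%) and 5 of 19 of replicate 3 (26.3%, 9.15% to 51.2%). Other cells with a TRB lacked a TRA in 17.2%, 21.9% and 38.4%. The mean difference, TRBV29 minus other cells, was -4.80 ± 6.35 percentage points (SD, n = 3), smaller than the spread between libraries. A second TRB was read in 7, 9 and 0 TRBV29 cells (11.7%, 8.49% and 0%) and in 4.88%, 6.39% and 1.61% of cells with other TRBs. A cell with 2 TRBs has more than 1 chance to hold a TRBV29, so the first share is raised by construction. The 186 TRBV29 contigs had a median of 7, 6 and 4 UMIs, equal in each library to that of other TRB contigs, and 8 of them rested on 1 UMI.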

How the data were processed

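CD45+ cells of sciatic nerves were profiled by 10X Genomics 5′ V(D)J sequencing in 3 libraries (4 mice). The authors processed reads with Cell Ranger on mm10; its version is not given in the sources used here, and Seurat is also in the submitters' processing notes. They deposited counts of UMIs and reads for each contig, and for each Cell Ranger clonotype its cells as a count and its share as a fraction. Annotations had 18 columns in replicate 1 and 31 in replicates 2 and 3. Consensus files were not used. Libraries had 2374, 3555 and 705 cells with 34630, 41338 and 5142 UMIs. The number of cells and UMIs sets the precision.

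Productive TRA and TRB contigs of cells were kept. Intervals were exact Clopper-Pearson 95% intervals. V-J and TRBV-TRAV pairing was tested over all pairs with an expected number of at least 5. The test was an exact two-sided conditional test with library as stratum and Benjamini-Hochberg adjustment. A run on simulated data covered the V-J test only, and its outcome is not given here. Junctions were matched from each end to GRCm38 segments placed by GENCODE M21, and the rest to the longest TRBD stretch; all 114 TRBV29 junctions and 3214 of other genes were matched. TRBV10 and TRBV12-2+TRBV13-2 were left out. J and TRAV genes named were those called, the 3 most used and TRAV7-3; TRBV genes were the 2 next above and below and the 3 nearest in J use; clonotypes were the shared one, its neighbours and the 3 largest per library, with ties. The gene and these lists were chosen with earlier results of these data known. Other named items were chosen after their values were seen. The tools were scipy 1.17.1, pandas 2.3.3, numpy 2.4.6 and matplotlib 3.10.9 under Python 3.11.15.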

Additional observations from a re-analysis of the deposited data

Results flagged for a closer look

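Signal for TRBV29 was also present in contigs that the comparisons above did not use. Of the contig counts below, all but the last 2 given for replicate 3 (0 and 1) were above the 3 counts that a count of 0 allows. TRBV29 contigs on barcodes that were not called as cells numbered 230, 56 and 29 in replicates 1, 2 and 3, which was 2.61%, 3.05% and 3.55% of all TRB contigs on such barcodes, beside 2.66%, 3.15% and 2.96% of cells. Their median was 1, 2 and 1 UMIs. Contigs with the TRB of the shared clonotype on such barcodes numbered 17 in replicate 1 and 5 in replicate 2, and 0 in replicate 3. On cell barcodes, 14 TRBV29 contigs of replicate 1, 14 of replicate 2 and 1 of replicate 3 were not called productive. What these contigs came from was not tested.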

How the results depend on the processing

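Of 55 values recomputed for the results above, 49 moved by less than the spread between libraries or, for counts, by less than 1.5 times. This tally was partly fixed in advance. Leaving out 1 of 3 libraries cannot move a mean by as much as that spread, so those settings could not fail. The TRBJ and TRAV settings counted as unmoved because they had 0 calls, as the main analysis had. The share of TRBV29 chains in expanded rearrangements was 34.9% with a limit of over 2 cells, 14.3% with over 5 and, in a setting added after seeing the data, 49.3% without the shared clonotype. Neighbours of the shared TRB rose from 0 to 1 with at most 2 differences, and to 1 with any TRBV gene. TRBV29 TRBs found in more than 1 library fell from 1 to 0 with the nucleotide CDR3. TRBV29 cells without a TRA rose to 48.2% with chains of at least 3 UMIs, since α chains with fewer UMIs were then left out. The paired clonotype had 17 cells, 16 with that limit, 18 by the TRB alone and 19 as the Cell Ranger clonotype. No TRBJ or TRAV gene passed in any of 15 settings in which a TRBV29 pair could be tested; for TRAV none could be tested without any 1 library, with at least 3 UMIs or with an expected number of at least 10. The 30 values of TRBJ2-5, TRBJ2-7, TRBJ1-4 and TRAV5-4 kept their direction, but TRBJ2-7 ranged from 0.194 to 0.873 of its expected number when 1 library was left out. No paired analysis was possible because the 3 libraries belong to 1 group. The number of TRBV29 rearrangements, at least in replicate 3 (13), limits what could be detected.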
